A study of Homo sapiens with 9 samples.

Results

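Transcripts of 20 genes for chromatin enzymes, chromatin remodellers and the RNA polymerase II machinery carried RNA editing marks of GPATCH8, of SUGP1 or of both in 293T cells. They were taken by symbol from the protein-coding rows: names starting with HDAC, SIRT, KDM, KMT, KAT, SETD, SMARC, CHD, BRD, DNMT, INO80, ARID, EZH, PRMT or POLR2, names of MED or TAF followed by a digit, and the single genes HELLS and TTF2. They were 20 of the 1348 protein-coding genes, and of the 1513 genes of any type, listed for either protein. HELLS and TTF2 are the only genes that the rule names singly, and they tied for the most sites among its genes with GPATCH8, so the counts and means that they carry are also given without them.

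The assay, TRIBE-seq, joins an RNA-binding protein to the hyperactive deaminase part of fly ADAR, which turns adenosines near the bound RNA into inosines that are read as guanosines. 293T is a human embryonic kidney line with the SV40 large T antigen. All libraries came from 293T cells labelled as wild type for SF3B1: GPATCH8-ADAR in run 1 (2 libraries), a non-targeting MCP and ADAR control fusion in run 1 (2) and again in run 2 (2), ADAR-SUGP1 in run 2 (2) and untransfected cells in run 2 (1). The fusions were expressed from transfected plasmids for 24 h and GFP-positive living cells were sorted, so the marks are those of an overexpressed fusion, and each library was sequenced to about 60 to 80 M paired reads of 100 bp. The design text calls the second fusion ADAR-SUGP1 and the sample descriptions call it SUGP1-ADAR. The name ADAR-SUGP1 is used here.

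Chromatin is opened, closed and marked by enzymes that work in large complexes. Acetyltransferases and deacetylases add and remove acetyl groups on lysines, methyltransferases mark histones or DNA, and remodellers use ATP to move nucleosomes. Mediator and TFIID, which is built from TBP and TAF proteins, bring RNA polymerase II to promoters. GPATCH8 and SUGP1 are G-patch proteins linked to branchpoint choice by the splicing factor SF3B1.

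Each deposited value is a number of editing sites in 1 transcript, kept because the site was found in both replicates of a fusion and not in controls. There is thus 1 value per transcript and fusion, with no value per replicate and no control value, and no difference below was tested over samples. Read coverage, editing level and position of the sites are not in these columns, so no sequence around a site is shown.

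GPATCH8-ADAR edited 9 of these genes, HELLS, TTF2, DNMT1, BRD8, POLR2J3, KAT8, CHD1, SETDB1 and TAF8, with 27 sites in total. ADAR-SUGP1 edited 15, INO80E, HDAC10, HDAC1, KAT8, CHD1, CHD1L, DNMT1, MED24, MED28, POLR2J2, SETDB1, SMARCD1, TAF11, TAF15 and TAF1D, with 24 sites. The rule takes in 221 RefSeq protein-coding genes, of which 4.07% were on the GPATCH8-ADAR list, against 2.42% of all RefSeq protein-coding genes. Without HELLS and TTF2 it was 7 of 219 (3.20%). With ADAR-SUGP1 the share was 6.79%, against 4.83% of all. The other 201 genes of the rule were on neither list, among them the polymerase's largest subunit POLR2A, the SWI/SNF ATPase SMARCA4 and the Polycomb methyltransferase EZH2. Which of these genes, or of all RefSeq protein-coding genes, were expressed and read deeply enough to be called is unknown. The shares were not tested, and a difference between them does not show preferred contact. A gene that is not listed is not thereby shown to be without contact. Of all sites in protein-coding genes, the 9 genes held 3.69% of 732 with GPATCH8-ADAR, and the 15 genes held 1.92% of 1252 with ADAR-SUGP1. HELLS and TTF2 carried 12 of the 27 sites with GPATCH8-ADAR, and the other 7 genes held 2.05% of the 732.

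**Figure D1:**
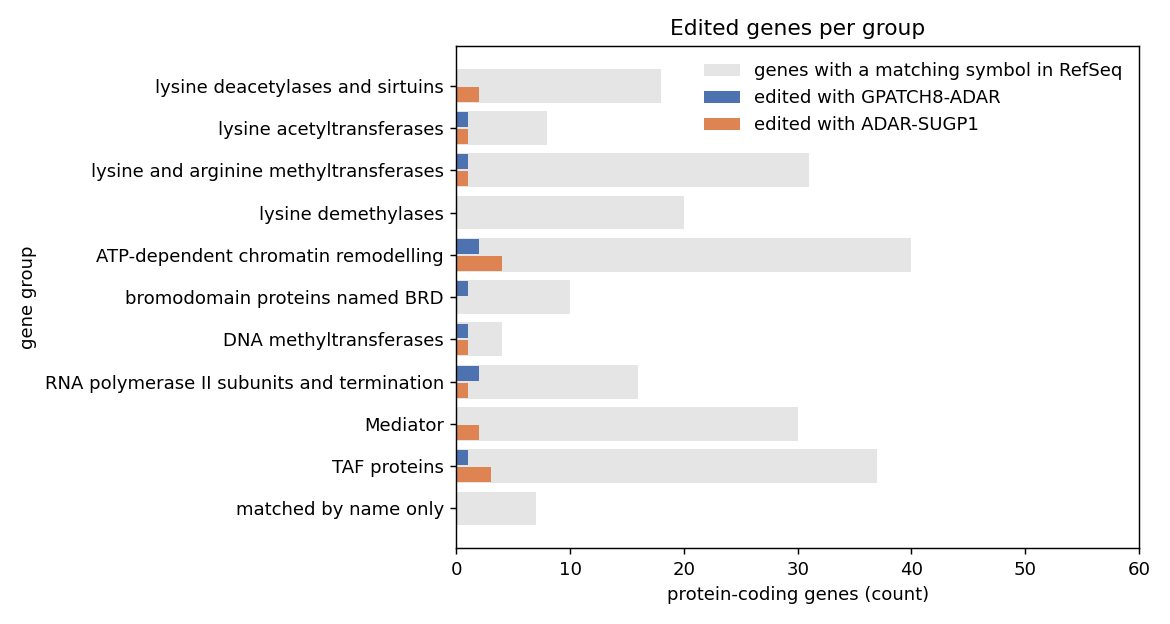
Number of protein-coding genes per group in RefSeq (grey) and edited with GPATCH8-ADAR (blue) or ADAR-SUGP1 (orange). ATP-dependent remodelling had 2 (HELLS among them) and 4 edited genes of 40, and none of the 20 lysine demethylase genes was edited with either fusion. Over all RefSeq protein-coding genes, 2.42% were listed with GPATCH8-ADAR and 4.83% with ADAR-SUGP1.

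The group of RNA polymerase II subunits and the termination factor TTF2 has 16 genes. With GPATCH8-ADAR 2 were edited, TTF2 and POLR2J3, with 8 sites, and with ADAR-SUGP1 1 was edited, POLR2J2. Without TTF2, which the rule names singly, POLR2J3 with 2 sites was the only one edited with GPATCH8-ADAR. Of all RefSeq protein-coding genes, 2.42% were listed with GPATCH8-ADAR and 4.83% with ADAR-SUGP1. TTF2, a SNF2-family ATPase that releases RNA polymerase from its template, had 3 intronic sites and 3 sites in the 3′ UTR of ENST00000369466.4 with GPATCH8-ADAR and was not listed with ADAR-SUGP1. Sites in both an intron and the 3′ UTR were rare: with GPATCH8-ADAR 5 of 498 protein-coding genes (1%) had them, and TTF2 was the only one of these 9 genes. With ADAR-SUGP1 10 of 995 genes (1.01%) had them, none of them among the 15.

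POLR2J3, one of the copies of the gene for the RPB11 subunit, had 2 sites in the 3′ UTR of ENST00000511313.1 with GPATCH8-ADAR, and its transcript ENST00000464525.1 was listed with no site (0 in each region). POLR2J2, a near-identical copy, had 1 intronic site in ENST00000591000.1 with ADAR-SUGP1. Reads of these copies may have been split between them in the authors' processing, so which copy was edited is uncertain. No site was listed for POLR2J, the main RPB11 gene, or for any other polymerase subunit.

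Of 40 chromatin remodeller genes, 2 had 7 sites in total with GPATCH8-ADAR, and 4 had 8 sites in total with ADAR-SUGP1. Without HELLS, which the rule names singly, CHD1 with 1 site was the only one edited with GPATCH8-ADAR. The lists held 2.42% (GPATCH8-ADAR) and 4.83% (ADAR-SUGP1) of all RefSeq protein-coding genes. HELLS, a SNF2-family remodeller needed for DNA methylation at repeats, carried 6 intronic sites with GPATCH8-ADAR, 5 of them in ENST00000419900.1 and 1 in ENST00000394036.1, and was not listed with ADAR-SUGP1. Without positions it cannot be told whether the site in ENST00000394036.1 is also among those 5. INO80E, a subunit of the INO80 remodelling complex, carried 5 intronic sites in ENST00000563197.1 with ADAR-SUGP1 and was not listed with GPATCH8-ADAR. INO80E overlaps DOC2A in RefSeq, and DOC2A was on neither list. CHD1, a remodeller that binds methylated histone H3 at active genes, had 1 intronic site with each fusion. CHD1L, a remodeller recruited by poly(ADP-ribose) at DNA damage, and SMARCD1, a SWI/SNF subunit, had 1 intronic site each with ADAR-SUGP1. Every site in remodeller genes was counted as intronic with either fusion, most of them in HELLS and INO80E. The intronic share of sites in the protein-coding genes outside the rule was 77.2% with GPATCH8-ADAR and 66.4% with ADAR-SUGP1. The region is that in the listed transcript, and without positions the region in other transcripts of a gene is unknown.

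DNMT1, which copies DNA methylation to the new strand after replication, was edited with both fusions. It had 5 intronic sites with GPATCH8-ADAR and a single one with ADAR-SUGP1, all in ENST00000592705.1. The other 3 genes of the DNA methyltransferase group were on neither list. This does not set them apart, as the lists held 2.42% (GPATCH8-ADAR) and 4.83% (ADAR-SUGP1) of all RefSeq protein-coding genes. A gap of at least 4 sites between the fusions was seen in 4 of the 145 protein-coding genes listed with both (2.76%), and DNMT1 was one of them. The difference between the fusions in DNMT1 was not tested.

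Of the lysine deacetylases, HDAC1 and HDAC10 were edited, both with ADAR-SUGP1. HDAC10, a polyamine and lysine deacetylase found largely in the cytoplasm, had 4 sites with ADAR-SUGP1. Its transcript ENST00000415993.1 had 1 site in coding sequence and 2 in introns, and ENST00000216271.5 had 1 in coding sequence. ENST00000415993.1 also had 2 stop-codon sites. Stop-codon sites are not part of a transcript's total in these tables, so whether they repeat sites already counted cannot be told. HDAC1, a catalytic subunit of the NuRD and Sin3 corepressor complexes, had 2 intronic sites in ENST00000373548.3 with ADAR-SUGP1. No deacetylase or sirtuin gene of the 18 was on the GPATCH8-ADAR list. The lists held 2.42% (GPATCH8-ADAR) and 4.83% (ADAR-SUGP1) of all RefSeq protein-coding genes. With 18 genes, the absence from the GPATCH8-ADAR list therefore does not set this group apart. The difference between the fusions was not tested.

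KAT8, the acetyltransferase MOF that acts on histone H4, was the single edited gene of 8 acetyltransferase genes and was edited with both fusions. It had 1 intronic site with GPATCH8-ADAR and 2 with ADAR-SUGP1, all in ENST00000543774.2. BRD8, a bromodomain subunit of the TIP60 (NuA4) acetyltransferase complex, had 4 intronic sites in ENST00000254900.5 with GPATCH8-ADAR and was not listed with ADAR-SUGP1. The other 9 genes of the BRD group were on neither list. Over all RefSeq protein-coding genes the listed shares were 2.42% (GPATCH8-ADAR) and 4.83% (ADAR-SUGP1). Unlisted genes therefore do not set the acetyltransferase or BRD group apart.

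SETDB1, a histone H3 methyltransferase of silent chromatin, was the single edited gene of the 31 genes whose symbols start with KMT, SETD, EZH or PRMT. Of all RefSeq protein-coding genes, 2.42% were listed with GPATCH8-ADAR and 4.83% with ADAR-SUGP1. Lysine methyltransferases of other names, EHMT2 and NSD1, had 1 intronic site each with ADAR-SUGP1. SETDB1 had 1 intronic site in ENST00000525956.1 with GPATCH8-ADAR. With ADAR-SUGP1 it had 1 site in the 3′ UTR of ENST00000368962.2, the same transcript had 1 stop-codon site, and ENST00000271640.5 was listed with a count of 0. The sites of the fusions thus lay in no region in common, as in 17 of the 145 protein-coding genes listed with both (11.7%).

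Factors of transcription initiation had 1 site each. TAF8, a TFIID subunit, had 1 site in the 3′ UTR of ENST00000372977.3 with GPATCH8-ADAR, beside ENST00000456846.2 with a count of 0. The TFIID subunit TAF11 had 1 intronic site with ADAR-SUGP1. TAF15, an RNA-binding protein, and TAF1D, a factor of RNA polymerase I, also had 1 intronic site each with ADAR-SUGP1. TAF1D hosts several small nucleolar RNAs in its introns, and without a position it cannot be told whether its site lies in one of them. The Mediator subunits MED24 and MED28 had 1 site each in the 3′ UTR of ENST00000580008.1 and ENST00000237380.7 with ADAR-SUGP1, and a further MED24 transcript, ENST00000394126.1, had a count of 0. No other gene of the 30 Mediator genes was listed, and none with GPATCH8-ADAR, whose list held 2.42% of all RefSeq protein-coding genes.

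**Figure D2:**
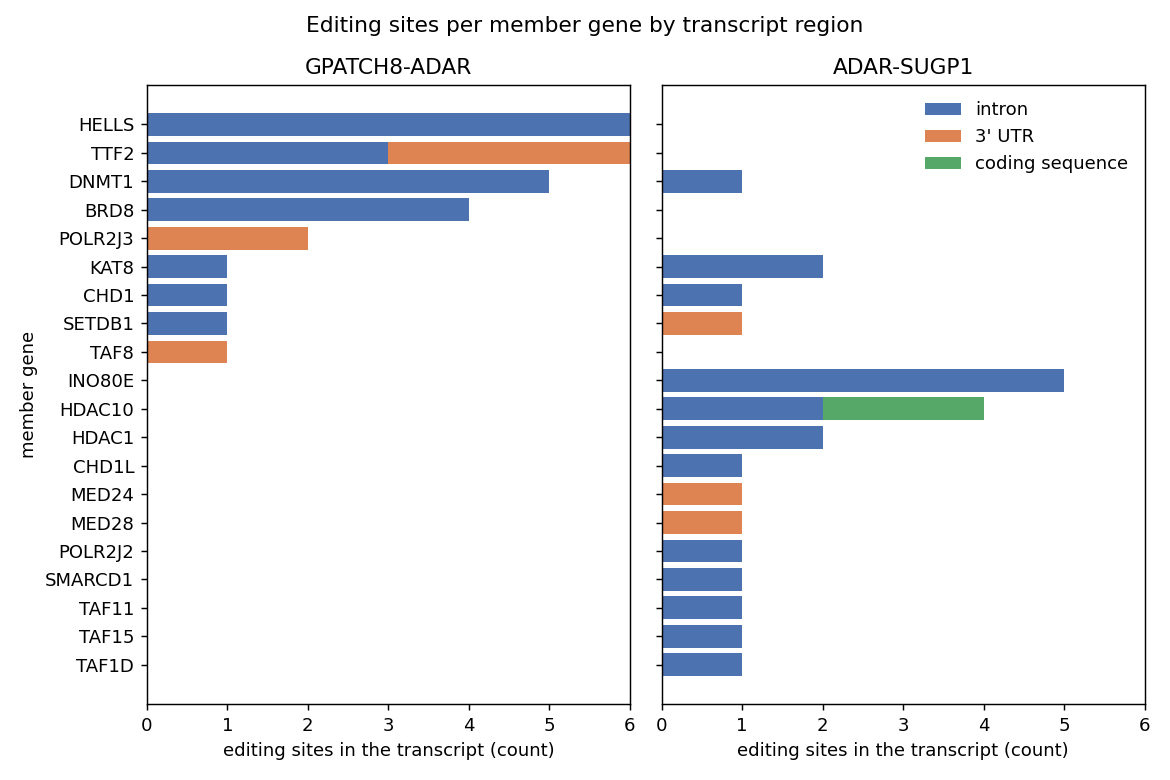
Editing sites per gene (x axis, count) for the 20 genes, with GPATCH8-ADAR on the left and ADAR-SUGP1 on the right, coloured by transcript region. HELLS and TTF2 have 6 sites with GPATCH8-ADAR, INO80E has 5 with ADAR-SUGP1, and HDAC10 alone has sites in coding sequence.

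The 4 genes with the most sites with GPATCH8-ADAR, TTF2, HELLS, DNMT1 and BRD8, held 21 of its 27 sites (77.8%). Of these 21 sites, 12 were in HELLS and TTF2, which the rule names singly. With ADAR-SUGP1 the 4 genes with the most sites, INO80E, HDAC10, HDAC1 and KAT8, held 13 of 24 (54.2%), and the other 11 genes had 1 site each. These shares rest on 4 of 9 and on 4 of 15 genes, so they are not like for like. With GPATCH8-ADAR 5 of the 9 genes had 2 sites or more, against 29.5% of all listed protein-coding genes, and 4 had 3 or more, against 9.84%. Without HELLS and TTF2 these were 3 and 2 of 7 genes. With ADAR-SUGP1 4 of the 15 genes had 2 sites or more, against 19.9%, and 2 had 3 or more, against 6.33%. With GPATCH8-ADAR HELLS, DNMT1 and BRD8 had at least 4 intronic sites (2 of 7 genes without HELLS and TTF2), as did 3.82% of protein-coding genes. INO80E had them with ADAR-SUGP1, where 1.31% of genes did.

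With GPATCH8-ADAR the 9 genes held 3.00 ± 2.24 sites each (mean and SD over genes, n = 9; median 2), and the other 489 protein-coding genes held 1.44 ± 0.957 (median 1). Without HELLS and TTF2 the mean was 2.14 ± 1.68 (n = 7) and the median 1, the same as over the other genes. With ADAR-SUGP1 the mean was 1.60 ± 1.24 (SD, n = 15; median 1), and over the other 980 genes 1.25 ± 0.731 (median 1). Genes are not replicates of a condition, so these means were not tested against each other.

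**Figure D3:**
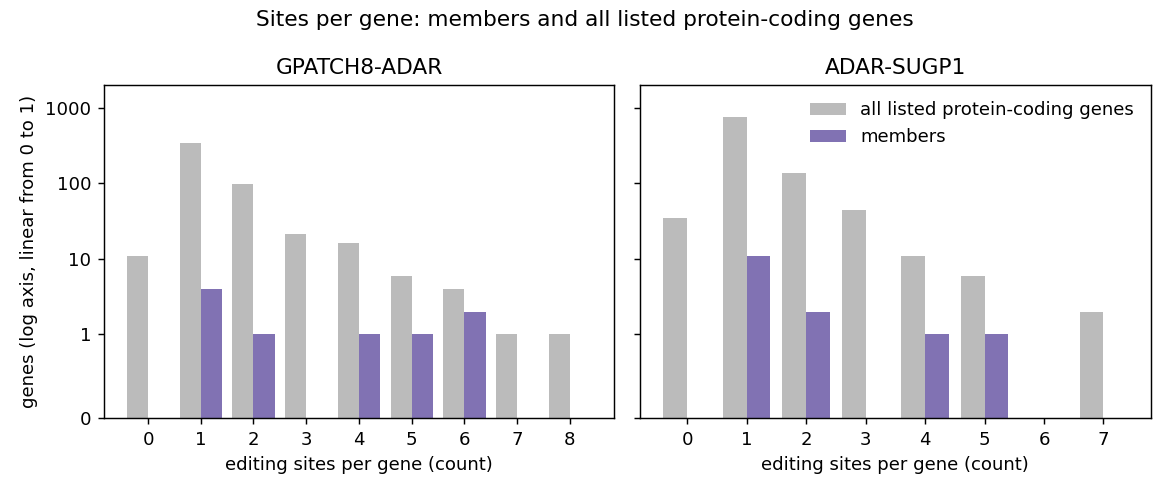
Number of genes (y axis, log scale above 1) with each number of editing sites (x axis), for all listed protein-coding genes (grey) and for the genes described here (purple, "members"). With GPATCH8-ADAR 2 of the 6 genes with at least 6 sites are HELLS (summed over 2 transcripts) and TTF2. With ADAR-SUGP1 11 of the 15 genes have 1 site.

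Most sites lay in introns with either fusion. Introns held 21 of 27 sites with GPATCH8-ADAR (77.8%, 95% exact Clopper-Pearson interval 57.7 to 91.4). With ADAR-SUGP1 they held 19 of 24 (79.2%, 57.8 to 92.9). These intervals cover counting error only, sites of 1 gene share a transcript, and regions are those in the listed transcript. Over the other protein-coding genes the intronic share was 77.2% (73.9 to 80.2) and 66.4% (63.6 to 69.0), inside the intervals above. The 3′ UTR held 6 sites in TTF2, POLR2J3 and TAF8 with GPATCH8-ADAR (22.2%, 8.62 to 42.3) and 3 in MED24, MED28 and SETDB1 with ADAR-SUGP1 (12.5%, 2.66 to 32.4), beside 19.1% and 16.9% over the other genes. Without HELLS and TTF2 the intronic share with GPATCH8-ADAR was 12 of 15 sites (80.0%) and the 3′ UTR share 3 of 15 (20.0%).

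Counted by gene, an intronic site was present in 7 of 9 genes with GPATCH8-ADAR, against 74.3% of listed protein-coding genes (5 of 7 without HELLS and TTF2), and in 12 of 15 with ADAR-SUGP1, against 63.1%. A 3′ UTR site was present in 3 of 9, against 20.3% (2 of 7 without HELLS and TTF2), and in 3 of 15, against 17.8%. At these numbers the placement of the sites could not be told from that in the other genes.

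Coding sites were found in HDAC10 alone, 2 of 24 sites with ADAR-SUGP1 (8.33%, exact interval 1.03 to 27.0), beside 11.3% over the other genes. By gene this was 1 of 15, against 12.9%. HDAC10 had 1 coding site in each of 2 transcripts, and without positions it cannot be told whether they are 1 adenosine counted for both. With GPATCH8-ADAR there were 0 coding sites of 27 (exact interval 0 to 12.8%), beside 2.41% over the other genes. A count of 0, taken as up to 3 sites, allows a share of up to 11.1%. By gene this was 0 of 9, against 3.01%. A stop-codon site was present in HDAC10 and SETDB1 with ADAR-SUGP1, 2 of 15 genes, against 14.4%, and in 0 of 9 genes with GPATCH8-ADAR, against 4.02%. No 5′ UTR site was listed in any of these genes, against 1.81% (GPATCH8-ADAR) and 5.73% (ADAR-SUGP1) of protein-coding genes, and no promoter site, against 0.602% and 0.603%. With so few genes and sites, a count of 0 does not set them apart.

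**Figure D4:**
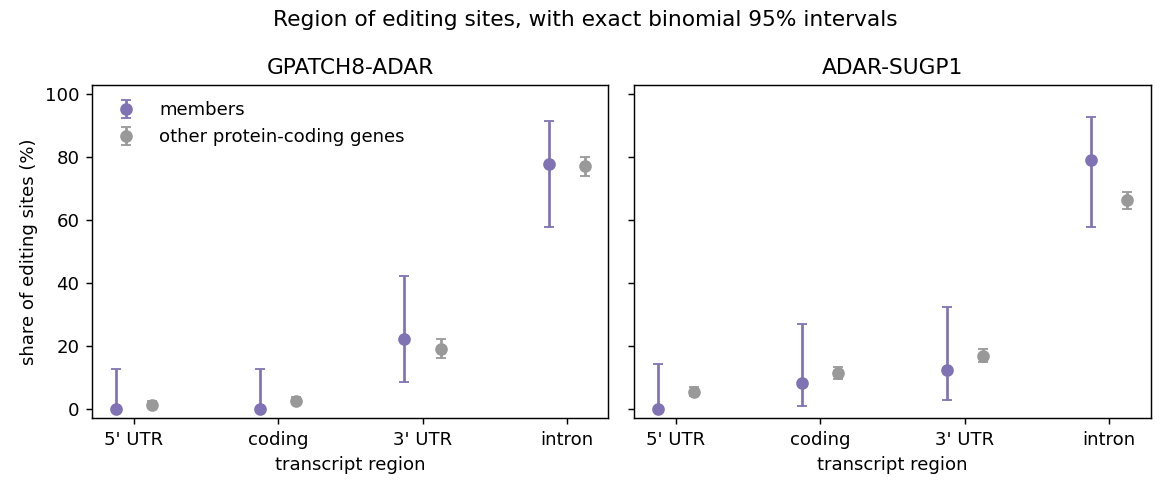
Share of editing sites per transcript region (y axis, %) in the genes described here (purple, "members") and in the other protein-coding genes (grey), with exact binomial 95% intervals. The intronic shares are 77.8% and 77.2% with GPATCH8-ADAR, and 79.2% and 66.4% with ADAR-SUGP1, and the intervals overlap in every region shown.

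Both fusions edited CHD1, DNMT1, KAT8 and SETDB1. These 4 genes are 44.4% of the genes edited with GPATCH8-ADAR (4 of 7 without HELLS and TTF2), against 29.1% of all protein-coding genes on that list, and 26.7% of those edited with ADAR-SUGP1, against 14.6%. CHD1, DNMT1 and KAT8 had the same transcript listed for both fusions, 3 of 4 genes, against 91% of the 145 shared protein-coding genes, and all their sites were intronic. The site counts with GPATCH8-ADAR and ADAR-SUGP1 were 1 and 1 in CHD1, 5 and 1 in DNMT1, 1 and 2 in KAT8, and 1 and 1 in SETDB1. Equal counts, as in CHD1 and SETDB1, were present in 53.1% of the shared genes. Whether the fusions marked the same adenosines cannot be told without positions. With POLR2J2 and POLR2J3 taken as 1 gene, a choice made after the data were seen, 5 genes were shared. Of the 4 genes with the most sites, 1 was shared with GPATCH8-ADAR (DNMT1) and 1 with ADAR-SUGP1 (KAT8). The fusions were sequenced in different runs against controls of their own, and the fusion cannot be told apart from its run.

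Several transcripts were listed for 3 of 9 genes with GPATCH8-ADAR (HELLS, POLR2J3, TAF8; 2 of 7 without HELLS and TTF2), against 8.63% of protein-coding genes, and for 3 of 15 with ADAR-SUGP1 (HDAC10, MED24, SETDB1), against 19.6%. In POLR2J3, TAF8, MED24 and SETDB1 the further transcript had no site, so HELLS and HDAC10 were the genes with sites counted in several transcripts. All 9 and all 15 genes had at least 1 site in the transcript body, against 97.8% and 96.5% of listed protein-coding genes. RefSeq genes overlap 11 of the 20 genes, and none of the overlapping genes was on either list. Whether sites were assigned by strand is not stated.

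Other genes of the same pathways came from 2 further lists of chromatin regulators and of transcription factors of RNA polymerase II that do not fall under the rule. Of 92 other chromatin regulators, GPATCH8-ADAR edited 2, with 3 sites, and ADAR-SUGP1 edited 9, with 10 sites. MTA1, a NuRD subunit, had 1 site in a 5′ UTR and 1 in an intron with GPATCH8-ADAR. MORF4L1, a reader of methylated histone H3, had 1 intronic site with each fusion and was the only gene of this list edited with both. That is 1 of the 2 genes edited with GPATCH8-ADAR, against 29.1% of all protein-coding genes listed with it. With ADAR-SUGP1 it is 1 of 9, against 14.6%. CBX3, a heterochromatin protein of the HP1 family, had 2 intronic sites with ADAR-SUGP1, and ASXL1, BPTF, EHMT2, L3MBTL2, MEN1 and NSD1 had 1 intronic site each. RBBP4, a histone-binding subunit of several chromatin complexes, had 1 site in its 3′ UTR with ADAR-SUGP1. The edited genes are 2.17% and 9.78% of the list, beside 2.42% and 4.83% of all RefSeq protein-coding genes. These differences were not tested, and which genes were expressed and covered is unknown.

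Of 69 other initiation, elongation and termination factors, GPATCH8-ADAR edited 5 (7.25%), with 5 sites, and ADAR-SUGP1 edited 7 (10.1%), with 8 sites. Over all RefSeq protein-coding genes the listed shares were 2.42% and 4.83%, and the differences were not tested. As which genes were expressed and covered is unknown, they do not show preferred contact. Here 3 genes were edited with both: RPAP2, a phosphatase of the polymerase's C-terminal domain, the TFIIH subunit GTF2H3 and the cleavage and termination factor PCF11. They are 3 of 5 genes with GPATCH8-ADAR, against 29.1% of all protein-coding genes on that list. With ADAR-SUGP1 they are 3 of 7, against 14.6%. RPAP2 had 1 site in its 3′ UTR with GPATCH8-ADAR and 2 with ADAR-SUGP1, and GTF2H3 had 1 in its 3′ UTR with each. PCF11 had 1 site in its 3′ UTR with GPATCH8-ADAR and 1 in an intron with ADAR-SUGP1, as SETDB1 did in the opposite order. The histone chaperones SUPT16H and SUPT6H had 1 intronic site each with GPATCH8-ADAR. The cyclins CCNH and CCNT1, partners of the kinases that phosphorylate the polymerase, the TFIIH helicase ERCC2 and NELFCD, a subunit of the negative elongation factor, had 1 intronic site each with ADAR-SUGP1. No gene of the 2 further lists had more than 2 sites with either fusion. Larger counts were uncommon among all listed protein-coding genes: 9.84% reached 3 sites for GPATCH8-ADAR, and 6.33% did for ADAR-SUGP1. Few genes of the further lists were edited, and the lists were chosen with earlier results known. The absence of larger counts therefore does not set them apart from the 20 genes.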

How the data were processed

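For each fusion the authors deposited a table of counts: how many editing sites, rather than reads, fell in each region of an Ensembl transcript, per the file headers. Endogenous and control editing was subtracted and sites found in both replicates were kept, per the series' design text. Per the submitters' processing notes, Trimmomatic, STAR and hg19 were used. How sites were called, the annotation, the use of strand, the depth of single libraries and whether replicates are separate cultures: not given in the sources used here. The transcript total was the sum of intron, coding and both UTR counts in all 612 and 1340 rows.

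Sites of protein-coding rows were summed per gene with Python 3.11.15 and pandas 2.3.3, after tests on simulated data, and exact intervals came from SciPy 1.17.1. A gene on a list counted as edited. Names were matched to RefSeq (GRCh38.p14): all 20 genes matched, and 1313 of 1348 protein-coding names. Genes, lists and alternatives were chosen with earlier results of these data known. All 20 genes were named; values are given in full for those with several sites, with coding or stop-codon sites, or edited with both fusions. The rule for further lists named the 4 genes with the most sites per fusion (ties alphabetical); the other edited genes of these lists, and the genes named as not listed, were named after their values were seen.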

Additional observations from a re-analysis of the deposited data

How the results depend on the processing

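With at least 2 sites required, the number of edited genes was 5 instead of 9 with GPATCH8-ADAR and 4 instead of 15 with ADAR-SUGP1, as fewer genes can pass. Current RefSeq symbols or rows of every transcript type changed neither count, and without TAF1D, which acts with RNA polymerase I, 14 genes remained with ADAR-SUGP1. Counting the largest transcript per gene gave means of 2.89 (GPATCH8-ADAR) and 1.53 sites (ADAR-SUGP1). With genes as the unit, the 3′ UTR share was 33.3% with GPATCH8-ADAR and 20.0% with ADAR-SUGP1. Regions with no site stay at 0 under any alternative that leaves genes out. Alternatives without HELLS and TTF2, or with POLR2J2 and POLR2J3 as 1 gene, were added after seeing the data. No paired analysis was possible because each table holds 1 count per fusion for both replicates together; leaving out a replicate could not be run for the same reason. Depth per site is unknown, so genes not listed and regions at 0 set no limit on contact.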
